A study of Mus musculus with 6 samples.

Results

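Genes of the secretory and surfactant-producing cells of the lung were followed in mouse hearts. The set holds 10 of the 14956 genes in the deposited table, namely Scgb1a1, Scgb3a2, Scgb3a1, Sftpc, Sftpb, Sftpa1, Sftpd, Napsa, Lamp3 and Cldn18, matched by gene name, and all 10 were found. They were chosen by the same FPKM values, which earlier inspection had shown to be high in a single library, so their levels are given as a description and carry no test. Poly(A) RNA was sequenced from the hearts of 3 heterozygotes (Otub1 +/-, here Het), in which 1 copy of Otub1 is disrupted, and of 3 wild-type mice (Otub1 +/+, here WT). All 6 mice had received doxorubicin, an anthracycline chemotherapy drug that injures the heart, in 6 injections over 2 weeks, so no untreated heart enters the comparison. Strain, age, sex and the kind of Otub1 allele are not given in the sources used here. Each heart gave 1 library, written as Het 1 to Het 3 and WT 1 to WT 3, and levels are FPKM, which scales a gene's fragments by transcript length and by the size of the library.

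Lung surfactant is a film of phospholipid and protein that keeps alveoli from collapsing, and alveolar type 2 cells make it, store it in lamellar bodies and secrete it. Club cells line the small airways and secrete small proteins of the secretoglobin family. Both cell types are epithelial, depend on the transcription factor NKX2-1 and are not part of heart muscle, so their products are commonly read as markers of lung epithelium.

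The level of Otub1 fitted the genotype labels, and the genes of heart muscle were abundant in every library. Otub1 stood at 4.83, 6.48 and 6.65 FPKM in Het 1, 2 and 3, against 15.4, 14.9 and 14.2 FPKM in WT 1, 2 and 3. Summed FPKM of 8 genes of working myocardium, among them Actc1 and Myh6, was 7720, 15502 and 15284 in Het 1, 2 and 3, against 17249 to 19394 in WT. Libraries also stood apart from each other over all genes. Het 1 reached a highest correlation of 0.887 with any other library, against 0.970 to 0.987 for the others, and mitochondrial transcripts made up 65.0% of its summed FPKM, against 51.5% to 56.1% elsewhere. Het 3 is the library that carried the lung transcripts, and levels are given library by library so that each can be read without it. Sequencing depth is not known from FPKM, and no counting error can be attached to a level. The p-values of the limma test given below measure the spread between these mice. The test behind the authors' q-values is not stated in the sources used here.

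The promoters of 5 of the 10 genes were matched in RefSeq (GRCm38.p6), and those of the 2 most abundant matched genes and of the least abundant gene are shown because NKX2-1 and forkhead factors of the FOXA group are known regulators of such genes. Bases 250 to 11 before the transcription start are printed for Sftpb (chr6:72304360-72304599, plus strand), Sftpa1 (chr14:41131538-41131777, plus strand) and Scgb3a1 (chr11:49663345-49663584, plus strand), 5′ to 3′. Capitals mark the letters CTCAAG, a core of NKX2-1 sites, and TGTTTG or TGTTTAC, cores of forkhead sites, searched on both strands, so that a match on the other strand is printed as its reverse complement. None of the matches overlap.
Sftpb: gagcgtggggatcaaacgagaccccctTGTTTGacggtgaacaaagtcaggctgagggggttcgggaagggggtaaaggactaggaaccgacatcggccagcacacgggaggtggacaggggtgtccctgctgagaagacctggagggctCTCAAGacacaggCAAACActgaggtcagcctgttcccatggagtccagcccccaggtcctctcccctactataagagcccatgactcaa
Sftpa1: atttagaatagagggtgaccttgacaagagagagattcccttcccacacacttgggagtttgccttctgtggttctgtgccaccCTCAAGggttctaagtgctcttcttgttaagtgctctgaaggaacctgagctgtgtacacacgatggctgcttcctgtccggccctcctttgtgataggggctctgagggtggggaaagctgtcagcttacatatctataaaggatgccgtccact
Scgb3a1: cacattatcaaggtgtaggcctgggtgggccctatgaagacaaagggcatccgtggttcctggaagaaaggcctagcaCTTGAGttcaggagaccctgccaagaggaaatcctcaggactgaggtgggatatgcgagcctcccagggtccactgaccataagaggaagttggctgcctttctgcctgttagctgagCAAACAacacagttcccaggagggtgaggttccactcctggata
The Sftpb window held CTCAAG starting 100 bases before the start and TGTTTG cores at 223 and 87 bases. The Sftpa1 window held CTCAAG at 166 bases, and the Scgb3a1 window held CTCAAG at 172 bases and TGTTTG at 54 bases. Over the 6 windows of the 5 matched genes (Sftpb, Sftpa1, Scgb3a1, Lamp3 and Cldn18, which has 2), 3 held CTCAAG and 4 held a forkhead core, where 12.9% and 17.95% of 32851 promoter windows of the same length did. The letters describe these windows and say nothing of whether a factor was bound.

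Every one of the 10 lung genes was higher in Het 3 than in any other heart, and in the other 5 hearts none exceeded 0.371 FPKM. Their summed FPKM was 0.217, 0.226 and 806 in Het 1, 2 and 3, against 0.434, 0.291 and 0.520 in WT 1, 2 and 3. The sum therefore averaged 269 ± 465 FPKM in Het and 0.415 ± 0.116 FPKM in WT (SD, n = 3 each), and the Het SD is larger than the Het mean. Without Het 3 it was 0.221 ± 0.00603 FPKM in Het (SD, n = 2), below each of the 3 WT values. In Het 3 these genes made up 0.140% of all summed FPKM, or 0.319% of the FPKM outside mitochondrial genes. Of the 50 values outside Het 3, 33 were listed at 0. Where the transcripts in Het 3 came from was not tested. In this bulk RNA, the number of cells carrying them and the amount per cell cannot be told apart.

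**Figure D1:**
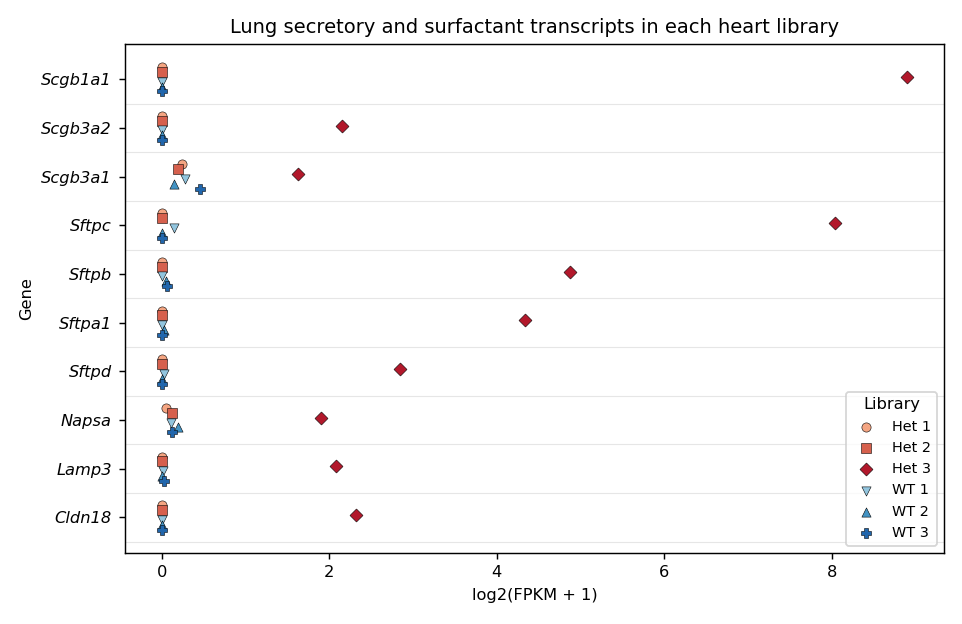
Level of each of the 10 lung genes (rows) on the log2(FPKM + 1) scale, with 1 point for each of the 6 libraries (Het 1 to 3 and WT 1 to 3). Het 3 lies to the right in every row, from Scgb3a1 at 2.08 FPKM to Scgb1a1 at 476 FPKM, and the other 5 libraries lie at or near 0.

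Among the secretoglobins, Scgb1a1 was the most abundant transcript of the set. It encodes uteroglobin, also called CC10, the main secreted protein of club cells (chromosome 19, 9083636 to 9087958, minus strand, GRCm38). It had 0 listed in Het 1 and Het 2 and 476 FPKM in Het 3, against 0 in WT 1, WT 2 and WT 3. That level ranked 59th of the 14956 genes in Het 3, above Psap, a widely expressed lysosomal gene, at 429 FPKM. Scgb3a2, a secretoglobin of the airway that NKX2-1 activates (chromosome 18), had 0 listed in Het 1 and Het 2 and 3.45 FPKM in Het 3, against 0 in all 3 WT hearts. Scgb3a1, a secretoglobin of larger airways (chromosome 11, 49663610 to 49665118, plus strand), stood at 0.183, 0.138 and 2.08 FPKM in Het 1, 2 and 3, against 0.213, 0.103 and 0.371 FPKM in WT 1, 2 and 3. Scgb3a1 was thus present at a low level in all 6 hearts, and Het 3 was 5.599 times the next highest library, WT 3, the smallest ratio among the 7 genes with a value outside Het 3.

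The hydrophobic surfactant proteins came next. Sftpc encodes SP-C, a lipid-embedded peptide made by alveolar type 2 cells (chromosome 14, 70520949 to 70524081, minus strand). With 0 listed in Het 1 and Het 2, it reached 261 FPKM in Het 3, against 0.109 FPKM in WT 1 and 0 in WT 2 and WT 3. Its level in Het 3 ranked 104th of all genes. Sftpb encodes SP-B, a saposin-like protein needed to form lamellar bodies (chromosome 6, 72304610 to 72314371, plus strand). With 0 listed in Het 1 and Het 2, its level reached 28.4 FPKM in Het 3, against 0, 0.0314 and 0.0432 FPKM in WT 1, 2 and 3. Scgb1a1 and Sftpc together held 91.4% of the summed FPKM of the set in Het 3.

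The collectins, soluble lectins of the airspace that bind microbes, were lower per transcript length, in FPKM. Sftpa1, which encodes SP-A (chromosome 14, 41131782 to 41136452, plus strand), was listed at 0 in Het 1 and Het 2 and stood at 19.2 FPKM in Het 3, against 0, 0.0163 and 0 FPKM in WT 1, 2 and 3. Sftpd, which encodes SP-D (chromosome 14, 41172214 to 41185149, minus strand), was listed at 0 in Het 1 and Het 2 and stood at 6.197 FPKM in Het 3, against 0.0192, 0 and 0 FPKM in WT 1, 2 and 3. Both genes lie on chromosome 14 with 35761 bases between them, on opposite strands. The 10 genes as a whole were spread over 8 chromosomes.

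The processing, lysosomal and junction genes of the set lay between 2.73 and 3.99 FPKM in Het 3. Napsa encodes napsin A, an aspartic protease that cleaves the SP-B precursor (chromosome 7, 44572380 to 44586862, plus strand). Its levels were 0.0343, 0.0882 and 2.73 FPKM in Het 1, 2 and 3, against 0.0801, 0.140 and 0.0894 FPKM in WT 1, 2 and 3. Like Scgb3a1 it was above 0 in all 6 hearts, and Het 3 was 19.5 times the next highest library. Lamp3, a membrane glycoprotein of lamellar bodies that dendritic cells also make (chromosome 16, 19653378 to 19706375, minus strand), was listed at 0 in Het 1 and Het 2 and stood at 3.22 FPKM in Het 3, against 0.0130, 0 and 0.0160 FPKM in WT 1, 2 and 3. Cldn18, a tight junction claudin of lung and stomach epithelium (chromosome 9, 99689461 to 99717267, minus strand), had 0 listed in Het 1 and Het 2 and 3.99 FPKM in Het 3, against 0 in all 3 WT hearts. Napsa and Cldn18 each overlap a predicted gene on the opposite strand in GENCODE M21, and since use of strand in counting is not stated, reads of the overlapping partners cannot be told apart. These levels come from 1 library, so the order of the genes within it has no spread of its own.

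The Het and WT hearts overlapped in every lung gene. Choosing genes high in Het 3 fixes that the 3 Het hearts cannot all lie below WT. In 0 of the 10 did all 3 Het hearts lie above all 3 WT hearts, and in 0 did they lie below, where 2.37% and 13.9% of all 14956 genes did. Of the 10, 5 reached the mean of 1 FPKM that the test across genes asked for (Scgb1a1, Sftpc, Sftpb, Sftpa1 and Sftpd), each through Het 3 alone. Limma's test of Het against WT called 0 of these 5 at a Benjamini-Hochberg adjusted p under 0.05, and 2 of 11096 genes in all (0.018%), Hnrnpa3 and Mup17, both lower in Het, with 431 genes at an unadjusted p under 0.05. Nothing is read from these counts, since the same values chose the genes. With all libraries in, the median of the 10 differences between Het and WT in mean log2(FPKM + 1) was 0.86. Without Het 3 it was −0.011, and 0 of the 10 were higher in Het. There 3 of the 10 were ties, listed at 0 in all 5 other libraries, and no value exceeded 0.371 FPKM.

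The authors' deposited table gives these genes very different standing. In the authors' deposited table Scgb1a1, Cldn18 and Scgb3a2 have q-values of 1.35e-09, 4.99e-07 and 2.76e-07 as higher in Het, and 116 of all genes (0.776%) have a q-value under 0.05 as higher in Het, and 152 (1.02%) in either direction. Sftpc, at 261 FPKM in Het 3, has a q-value of 0.177 in the authors' deposited table, and the other 6 lie between 0.280 and 0.818. The 3 lung genes with a low q-value are those listed at 0 in all 3 WT hearts, and the 7 with a trace in at least 1 WT heart have none under 0.05. The same split held in a wider group that includes the set. Of the 66 genes that were higher in Het 3 than in every other library by more than 1 on the log2(FPKM + 1) scale, 14 were listed at 0 in all WT hearts, and 12 of those have a q-value under 0.05 in the authors' deposited table. Of the 52 with a value above 0 in at least 1 WT heart, 0 do, and their lowest q-value in the authors' deposited table is 0.0916. The authors' fold change sets a mean of 0 to 0.0001, so the log2 fold change of 20.60 that the authors' deposited table lists for Scgb1a1 depends on that setting.

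Het 3 held more strongly set-apart genes than the other libraries. By more than 2 on the log2(FPKM + 1) scale, 21 genes were higher in Het 3 than in every other library, against 5 in Het 1, 3 in Het 2, 0 in WT 1 and WT 2 and 1 in WT 3. Of the 21 genes, 8 belong to the set, which the choice of the set fixes, and a further 9 stand in the other lists of lung and airway genes. Those lists were written with earlier results of these data known, so nothing is read from the 9. By more than 1, the counts were 152 in Het 1, 17 in Het 2 and 66 in Het 3 (0.441% of all genes), against 3, 0 and 7 in WT 1, 2 and 3. Het 1 therefore held the most genes past the lower bound and Het 3 the most past the higher one.

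**Figure D2:**
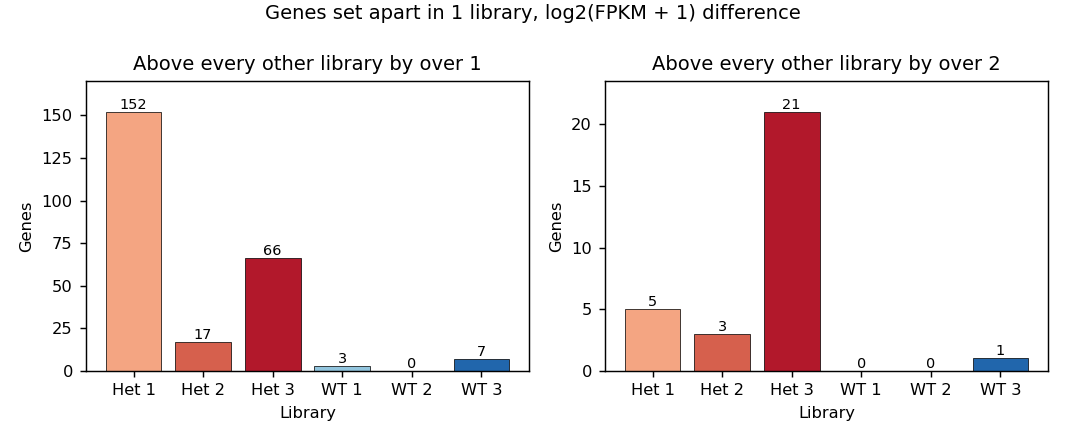
Number of genes that lie above every other library by more than 1 (left) and by more than 2 (right) on the log2(FPKM + 1) scale, for each library, with Het 1 to 3 before WT 1 to 3. Het 1 is highest at the lower bound with 152 genes and Het 3 at the higher bound with 21.

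The 12 further genes with the largest excess in Het 3, measured as the difference in log2(FPKM + 1) from the highest of the other 5 libraries, included 8 that stand in the other lists of lung and airway genes. The 12 were Cyp2f2, Ager, Cxcl15, Sec14l3, Slc34a2, Inmt, Wfdc2, Chil1, H2-Ea, Lyz1, Cyp2b10 and Mal2, with predicted gene names left out. The lists were written with earlier results of these data known, so nothing is read from this overlap. Cyp2f2, the cytochrome P450 that activates naphthalene in club cells, stood at 0, 0.246 and 38.3 FPKM in Het 1, 2 and 3, against 0.722, 0.408 and 0.735 FPKM in WT 1, 2 and 3. Ager, the receptor RAGE, which alveolar type 1 cells make in abundance, stood at 0.445, 0.275 and 25.8 FPKM in Het 1, 2 and 3, against 0.203, 0.493 and 0.124 FPKM in WT. Het 3 exceeded every other heart by 4.50 for Cyp2f2 and 4.17 for Ager on the log2(FPKM + 1) scale.

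Cxcl15, the lung chemokine lungkine, reached 11.7 FPKM in Het 3, with 0 listed in the other 5 hearts. Slc34a2, the phosphate transporter of alveolar type 2 cells, stood at 7.39 FPKM in Het 3, and Wfdc2, a secreted whey acidic protein family member of airway epithelium, at 6.34 FPKM, and both were listed at 0 elsewhere. Inmt, an N-methyltransferase abundant in mouse lung, stood at 4.84, 5.48 and 48.8 FPKM in Het 1, 2 and 3, against 4.72, 3.21 and 5.11 FPKM in WT, so it was present in every heart. H2-Ea, the alpha chain of a class II molecule that mice of the H-2b haplotype such as C57BL/6 do not transcribe, stood at 0, 0.126 and 6.35 FPKM in Het 1, 2 and 3, against 0, 0.0676 and 0 FPKM in WT. Lyz1 stood at 7.34 FPKM in Het 3, where no other heart exceeded 0.8002 FPKM, but it is nearly identical to Lyz2, which stood at 168 FPKM in Het 3, so reads can be split between them.

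**Figure D3:**
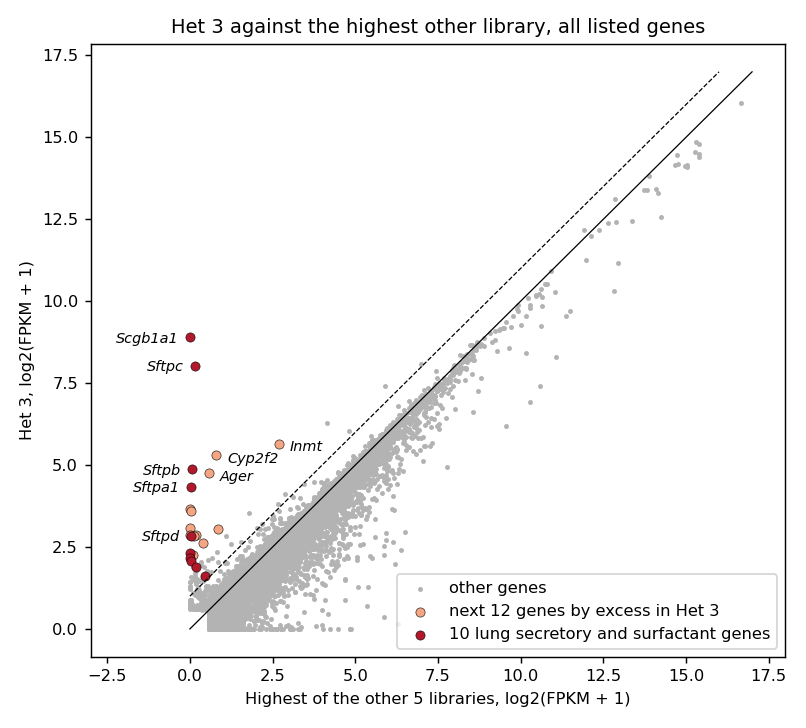
Each gene's level in Het 3 (vertical) against the highest of the other 5 libraries (horizontal), both as log2(FPKM + 1), with the line of equality and a dashed line 1 above it. The 10 lung genes (dark red) and the next 12 by excess (orange) lie above the dashed line, all but Inmt near the left edge, and Scgb1a1 and Sftpc are farthest from it.

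Other genes of lung epithelium, from lists written by cell type with earlier results of these data known, were also mostly highest in Het 3. Over 7 lists of lung and airway epithelium, 57 of 86 genes had values, 51 of the 57 were highest in Het 3 and 24 were so by more than 1, where 16.2% and 0.441% of all genes were. The table's lowest summed FPKM over the 6 libraries was 0.502, and 22 of the 57 genes reach that sum only with Het 3, so that their place in the table already required a high value there. Each of the 7 lists holds some of these genes, so the counts per list below carry the same limit. Of the other 35 genes, 29 were highest in Het 3 and 10 were so by more than 1, where 15.7% and 0.209% of all genes that reach the sum without Het 3 were. The gene test of Het against WT by limma called 0 of their 25 tested members, and 0 had an unadjusted p under 0.05. Of the 25, 9 averaged under 1 FPKM in the other 5 libraries and were tested only through Het 3, against 96 of 11096 tested genes. A gene high in 1 Het heart alone has a wide spread in Het, so nothing is read from these counts.

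Of 11 other alveolar type 2 genes, 10 were highest in Het 3, 5 of them by more than 1, and 0 of 8 tested passed. Of all 11096 tested genes 0.018% passed, so nothing is read from a count of 0 here or in the lung lists below. Of the 8 tested, 4 averaged under 1 FPKM in the other 5 libraries and were tested only through Het 3. Their summed FPKM was 10.2, 14.6 and 55.9 in Het 1, 2 and 3, against 13.5, 14.6 and 15.2 in WT 1, 2 and 3. Ctsh, Abca3 and Etv5, which were present in all 6 hearts, stood closer to the other libraries. Ctsh, a cathepsin that also processes surfactant proteins, stood at 3.38, 5.08 and 7.18 FPKM in Het 1, 2 and 3, against 4.94 to 5.47 FPKM in WT. Abca3, the lipid transporter of lamellar bodies, stood at 2.60, 2.66 and 3.87 FPKM in Het, against 2.40, 2.30 and 2.57 FPKM in WT. Etv5, a transcription factor that maintains alveolar type 2 cells, was highest in WT 3, at 4.89 FPKM, and stood at 4.13 FPKM in Het 3.

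All 9 other club and airway secretory genes with values were highest in Het 3, 5 of them by more than 1, and 0 of 2 tested passed. Cbr2, a carbonyl reductase of lung, stood at 16.8, 10.05 and 77.4 FPKM in Het 1, 2 and 3, against 9.92, 8.98 and 7.58 FPKM in WT 1, 2 and 3. Of 12 alveolar type 1 genes, 11 were highest in Het 3, 7 of them by more than 1, and 0 of 7 tested passed. Aqp5, the water channel of these cells, reached 1.69 FPKM in Het 3, with 0 listed in all other hearts, while Hopx, which heart muscle also expresses, had levels of 12.7, 48.4 and 59.8 FPKM in Het hearts, against 59.7, 54.7 and 60.6 FPKM in WT hearts. All 5 airway defence genes with values were highest in Het 3, 2 of them by more than 1, and 0 of 3 tested passed.

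Ciliated cell genes showed no excess past 1, a bound that a gene under 1 FPKM in Het 3 cannot pass. Cfap126, Rsph1, Foxj1, Tmem212 and Ccdc153 were under that level there, so the bound says nothing of them. Of 8 with values, 6 were highest in Het 3 and 0 by more than 1, and 0 of 2 tested passed. Their summed FPKM, mostly that of Mlf1 and Tppp3, was 35.6, 50.6 and 48.9 in Het 1, 2 and 3, against 63.9, 61.7 and 58.4 in WT 1, 2 and 3. Mlf1, the most abundant of the list, stood at 27.2, 45.1 and 33.3 FPKM in Het 1, 2 and 3, against 52.4, 50.8 and 51.7 FPKM in WT 1, 2 and 3. Foxj1, the factor that drives motile cilia, was named after its value was seen and reached 0.658 FPKM in Het 3, with 0 listed in the other 5 hearts. Tmem212 and Ccdc153, also named after their values were seen, reached 0.595 and 0.584 FPKM in Het 3, again with 0 listed in the other 5 hearts. Of 7 general epithelial genes all were highest in Het 3, 4 of them by more than 1. Cdh1, which encodes E-cadherin, stood at 1.97 FPKM in Het 3, where no other heart exceeded 0.0126 FPKM. Of 5 lung transcription factors, 3 were highest in Het 3, 1 of them by more than 1. Nkx2-1 reached 1.68 FPKM in Het 3, with 0 listed in Het 1, Het 2 and all 3 WT hearts, and Foxa2 stood at 0.587 FPKM in Het 3, where no other heart exceeded 0.0740 FPKM. Gata6 was instead highest in WT 3, at 9.54 FPKM, with 8.49 FPKM in Het 3. Sox9 was highest in WT 1, at 0.714 FPKM, with 0.434 FPKM in Het 3. Lists of airway basal and neuroendocrine cells, of 6 genes each, were not analysed here.

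**Figure D4:**
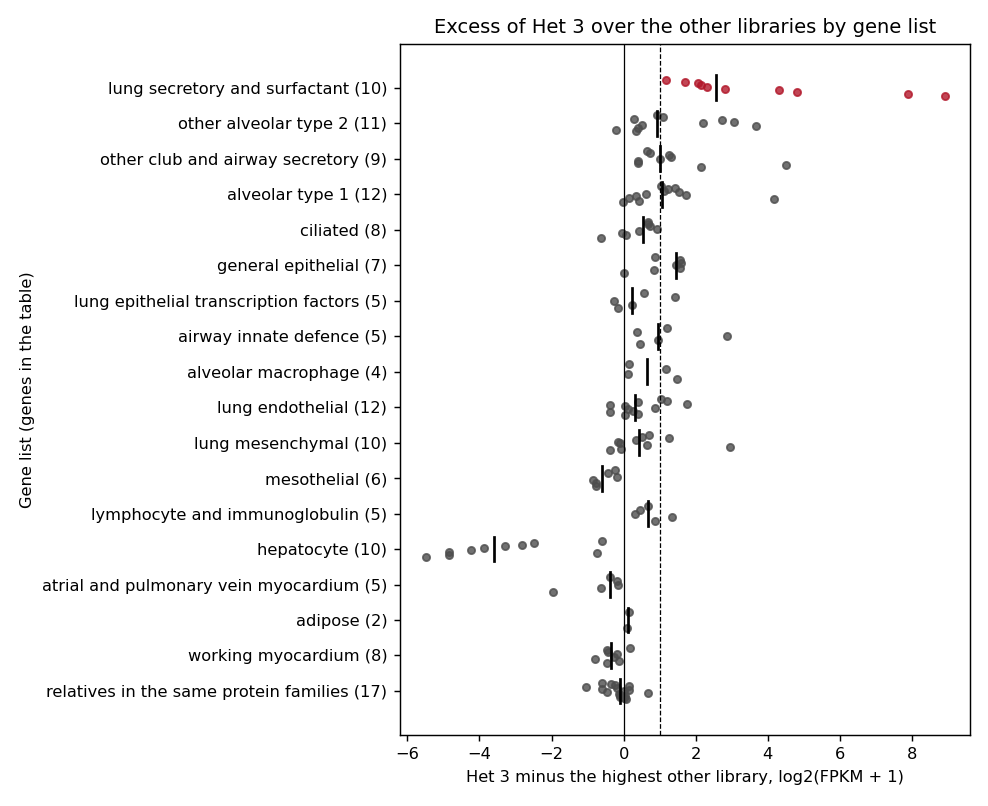
Difference between Het 3 and the highest of the other 5 libraries in log2(FPKM + 1), with 1 point per gene, for each gene list with values in the table, and a bar at the median of the list. The lung and airway lists lie mostly right of 0, while hepatocyte genes, at a median of −3.58, lie left of it.

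Genes of other cells found in lung were partly higher in Het 3 as well. Over all genes, 16.2% were highest in Het 3 and 0.441% were so by more than 1. Of 12 lung endothelial genes, 10 were highest in Het 3 and 3 were so by more than 1. Of 10 lung mesenchymal genes, 6 were highest in Het 3 and 2 were so by more than 1. Of the most abundant endothelial genes, Tmem100 stood at 6.46, 10.1 and 24.1 FPKM in Het 1, 2 and 3, against 23.5, 18.2 and 22.6 FPKM in WT 1, 2 and 3, and Kitl was highest in Het 1, at 18.5 FPKM, with 14.0 FPKM in Het 3. Ace and Car4 were highest in Het 3, at 20.9 and 15.2 FPKM, where no other heart exceeded 15.7 and 12.4 FPKM. Of the most abundant mesenchymal genes, Ces1d and Limch1 were highest in Het 2, at 56.1 and 17.9 FPKM, with 42.6 and 16.9 FPKM in Het 3. Inmt and Mfap4 were highest in Het 3, Mfap4 at 11.7 FPKM, where no other heart exceeded 7.19 FPKM. Foxf1, a factor of lung mesenchyme and capillaries named after its values were seen, stood at 0.807, 0.125 and 3.14 FPKM in Het 1, 2 and 3, against 0.0716, 0.244 and 0.144 FPKM in WT 1, 2 and 3. Of 11 alveolar macrophage genes 4 had values, all highest in Het 3 and 2 by more than 1, and their summed FPKM was 1.03, 0.941 and 6.70 in Het, against 0.784 to 1.35 in WT. Chil3, a chitinase-like protein of these macrophages, stood at 3.46 FPKM in Het 3, where no other heart exceeded 0.589 FPKM. Of 18 lymphocyte and immunoglobulin genes 5 had values, all highest in Het 3 and 1 by more than 1, and they summed to 12.3 FPKM there, against 1.84 to 4.10 FPKM elsewhere. Trbc1, Trbc2 and Igha of this list would fall under the lowest listed sum without Het 3. The same holds for Ear2 of the macrophage list and for Fgfr4 and Tbx4 of the mesenchymal list. Having a value thus already fixed these genes as high in Het 3. Their part in the lung gene values was not tested.

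Relatives of the lung genes in the same protein families had no excess past 1 in Het 3. Of 17 relatives with values 7 were highest in Het 3 and 0 by more than 1, where 16.2% and 0.441% of all genes were. So few genes pass that bound at all that nothing is read from the 0. Psap, whose product is related to SP-B, stood at 86.6, 409 and 429 FPKM in Het 1, 2 and 3, against 376, 331 and 385 FPKM in WT. Scgb1c1, another secretoglobin, and Cldn5, another claudin, were named after their values were seen. Scgb1c1 was lowest in Het 3, at 2.02 FPKM, with 4.18 and 2.19 FPKM in Het 1 and Het 2. In WT it stood at 3.63, 5.18 and 4.81 FPKM. Cldn5 was instead highest in Het 3, at 15.1 FPKM, where no other heart exceeded 9.08 FPKM. Lamp1, the broadly expressed relative of Lamp3, stood at 41.6, 132 and 135 FPKM in Het, against 122, 114 and 130 FPKM in WT.

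Genes of other organs and tissues were followed by the same measures. The hepatocyte list, with 10 genes with values, summed to 5.24, 51.4 and 11.9 FPKM in Het 1, 2 and 3, against 144, 131 and 186 FPKM in WT 1, 2 and 3, and 0 of the 10 were highest in Het 3. Limma called 0 of the 9 tested, although all 9 were lower in Het at an unadjusted p under 0.05, as were 342 of all 11096 tested genes. Without Het 2, the Het heart with the highest sum of this list, it called 8 of the 9, all lower in Het, among them Alb and Apoa1. That setting called 25 of 11078 genes in all, and no other setting called a gene of this list. Of the 11.9 FPKM in Het 3, Trf, which other tissues also make, held 11.4 FPKM, and albumin (Alb) stood at 0.296 FPKM. Pleural and epicardial mesothelial genes, with 6 values, had 0 highest in Het 3, and their sum was 1.48, 3.9996 and 3.50 FPKM in Het, against 7.75, 1.69 and 2.89 FPKM in WT. Of 5 genes of atrial and pulmonary vein muscle 0 were highest in Het 3, and Nppa, the atrial natriuretic peptide gene, stood at 230, 56.0 and 97.6 FPKM in Het, against 110, 380 and 224 FPKM in WT. Both adipose genes with values were highest in Het 3, 0 by more than 1. Over all genes 16.2% were highest in Het 3 and 0.441% were so by more than 1. Nothing is therefore read from the counts of highest genes in these short lists. Lists of thymus and thyroid were not analysed here.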

How the data were processed

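Poly(A) RNA from 3 Het and 3 WT hearts was measured. Per the labels' protocols, libraries were stranded (dUTP). Without roles, the submitters' processing notes name StringTie 1.3.4d, DESeq2, edgeR, HISAT2 2.0.4, cutadapt 1.9 and the build mm10. The authors deposited 1 table of FPKM, with p-value, q-value, fold (fc), log2 fold change and −log10 p of Het against WT, per the file headers. No source states the unit outright, and FPKM is an inference from the deposited numbers and the named StringTie. The smallest summed FPKM over the 6 libraries was 0.502, so lower genes had been left out. Depth is unknown, so precision is the spread between mice.

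For the 11096 genes averaging 1 FPKM or more, Het was compared with WT on log2(FPKM + 1) by limma 3.58.1, run in R 4.3.3 (lmFit, eBayes with trend and robust), with Benjamini-Hochberg adjustment over all of them and a threshold of 0.05. A fold change on this scale understates low genes. The script was tested on simulated data. Coordinates are those of GENCODE M21 (GRCm38), where all 10 genes were found. The text names the 10 genes, Otub1, up to 4 genes of highest mean in each list with genes at 0 elsewhere, and 12 genes by excess in Het 3. Other names (Aqp5, Foxj1, Tmem212, Ccdc153, Cdh1, Foxa2, Foxf1, Fgfr4, Tbx4, Igha, Scgb1c1, Cldn5, Lyz2, Hnrnpa3, Mup17 and those under other observations) were chosen after their values were seen. The members and all 21 other lists were chosen with earlier results of these data known. Genes and lists without values are not analysed here. Alternatives were a pseudocount of 0.1, 2 scalings, 2 filters, a replicate block, library weights and leaving out each library. Figures were drawn with matplotlib 3.10.9.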

Additional observations from a re-analysis of the deposited data

How the results depend on the processing

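All 10 lung genes were highest in Het 3 with either scaling, while a pseudocount or leaving out another library cannot change that count. The median difference of the 10 genes between Het and WT, 0.86 in log2(FPKM + 1), was 1.85 with the pseudocount of 0.1. It was −0.011 without Het 3, where the sign turned, though between values at or near 0. It lay between −0.011 and 1.29 when single libraries were left out. Limma called 2 genes in all, 1 with median-ratio scaling and 22 with library quality weights. The count lay between 1 and 38 when single libraries were left out, at 8, 25 (all lower in Het, 8 of them hepatocyte genes of the list) and 38 (36 of them higher in Het) without Het 1, Het 2 and Het 3, and at 1 without each WT library. Median-ratio scaling moved the median log2 fold change of all tested genes to −0.0043, against −0.18 as deposited. With the replicate number as a block it called 1. Deviations of same-numbered libraries from their group means correlated at −0.20, −0.43 and 0.21. With so few libraries per group, these values cannot decide whether the numbers pair the hearts. No lung gene was called in these settings, which tested 5 of the 10 in most cases, 10 with no filter, 2 at a mean of 5 FPKM and 0 without Het 3. The values of the 10 genes rest on 1 library, so their size in Het 3 has no replicate.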

Other observations

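Some further genes were highest in Het 3 and are named one by one after their values were seen, with no count or test of a group. Cd74, the invariant chain of class II molecules, which alveolar type 2 cells and macrophages also express, stood at 15.4, 24.5 and 65.5 FPKM in Het 1, 2 and 3, against 23.3, 27.0 and 16.7 FPKM in WT 1, 2 and 3. H2-Ab1 stood at 3.42, 6.27 and 16.3 FPKM in Het, against 5.71, 6.41 and 4.02 FPKM in WT. Gzmb, a protease of cytotoxic lymphocytes, stood at 0, 0.275 and 3.08 FPKM in Het and was listed at 0 in WT. Il5, a cytokine that acts on eosinophils, stood at 0.108, 0 and 2.07 FPKM in Het and was listed at 0 in WT. Fendrr, a non-coding RNA transcribed from the strand opposite to Foxf1, 1275 bases from it on chromosome 8, stood at 0.0513, 0.0649 and 2.73 FPKM in Het, against 0.0659, 0.0341 and 0 FPKM in WT.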
